A study of Rattus norvegicus with 56 samples.

Results

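The genes described are 9 scaffold genes of the postsynaptic density, Dlg1, Dlg2, Dlg3, Dlg4, Shank1, Shank2, Shank3, Dlgap1 and Homer2, out of 13893 genes with a tested probe. Their probes were found through the RefSeq accession that the scanner files give for each spot, which yielded 19 probes, and the brightest probe of a gene stood for it. Expression was measured in primary cultures of hippocampal neurons from E18 Sprague-Dawley rats, with 1 array per sample. Cultures had received repetitive transcranial magnetic stimulation (rTMS), in which a magnetic coil under the dish induces brief electric currents in the cells. Stimulation was given either as evenly spaced pulses (1 Hz) or in grouped bursts (intermittent theta burst stimulation, iTBS). Sham cultures were kept in the incubator with the coil at a distance, and RNA of these 3 arms was taken at 5 times: directly after stimulation (0 h) and 2, 8, 24 or 48 h later. Untreated cultures (CTR) were sampled at 0 h only. All cultures were dissociated cells on coated coverslips, and the labels give no sex and no count of animals for them.

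The postsynaptic density is the protein layer beneath the membrane of excitatory synapses. The Dlg genes encode membrane-associated guanylate kinases (MAGUKs), whose PDZ domains bind the tails of NMDA receptor subunits and of proteins that accompany AMPA receptors, and Dlg4 encodes PSD-95, the best known of them. Dlgap1 encodes GKAP, which binds the guanylate kinase domain of the MAGUKs on one side and Shank proteins on the other. The Shank proteins form the deeper platform of the density and bind Homer proteins, which in turn hold group I metabotropic glutamate receptors and IP3 receptors.

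Of 56 arrays, 1 array, 1 Hz at 2 h replicate 2, had been marked by the scanner software as having a badly placed grid, with a median background of 838.5 intensity units against 24.0 to 40.5 on the others. It was left out, so that group has 2 arrays, and the other 15 groups have 3 or 4. On the 55 arrays, 66.1% to 81.8% of noncontrol spots were well above background, and no spot was saturated. The sample descriptions number the samples in 4 runs, called series A to D here, with 11, 12, 17 and 15 arrays. The labels do not say what a run is or whether arrays of a group came from separate cultures, so p-values measure the spread between these samples, which may be technical. Each run passes through the arms and times, and series A lay on slides 1 and 2, B on slides 3 and 4, C on slides 5 to 7, and D on all 7 slides. All 10 neuronal marker genes were above background on every array, but so were the 6 astrocyte and the 6 oligodendrocyte lineage markers, so the cultures were not free of glial transcripts.

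All 9 brightest probes were well above background on all 55 arrays and were tested. Levels are given as scaled log2 signal, in which the mean of all probes on an array is 0, and differences read as log2 changes. The Dlg4 and Dlg1 probes gave low processed signals, at 40.1 to 416.6 (median 109.8) and 61.7 to 517.1 (median 198.0) intensity units, and Dlg4 had the widest spread within groups, with a median group SD of 0.70. For the other 7 genes the median group SD ran from 0.21 (Homer2, Shank3) to 0.41 (Shank1).

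The first comparison asked whether either protocol changed the scaffold genes against sham at the same time. No scaffold gene passed the test in either direction. Of 45 tests of 1 Hz and 45 of iTBS, 0 passed in limma at an adjusted p under 0.05, and 0 had an unadjusted p under 0.05. Over all probes, 0.00168% of the 1 Hz tests and 0.00112% of the iTBS tests passed. Changes of the 9 genes ran from −0.46 to 0.46, with a median of −0.03 for 1 Hz and of 0.02 for iTBS, against 0.01 and −0.01 over all probes.

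Both extremes belonged to Shank1, a Shank protein found mainly in brain. At 24 h the 1 Hz arrays of Shank1 stood at 3.02, 3.69 and 3.12, and the sham arrays at 3.72, 3.69 and 3.80. The 1 Hz arrays of series A and D were below all sham arrays and the array of series C was within their range, and the change was −0.46 ± 0.40 (SE, n = 3 and 3, 95% confidence interval −1.26 to 0.35, limma adjusted p = 1.00). At 48 h the iTBS arrays stood at 4.25, 4.38, 4.05 and 3.74 and the sham arrays at 3.59, 4.08 and 3.27, so that the groups overlapped, and the change was 0.46 ± 0.37 (SE, n = 4 and 3, interval −0.30 to 1.21, limma adjusted p = 1.00). Against sham of the same series and time, iTBS at 48 h was higher by 0.66 in series A and 0.47 in series D. In series C it was lower, at −0.03.

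The intervals show what size of change the arrays could have missed. For Dlg3, which encodes a MAGUK prominent early in development, all 10 intervals lay between −0.59 and 0.57, for Dlgap1 between −0.52 and 0.61, and for Shank3 between −0.65 and 0.57. For Dlg2, a MAGUK that binds NMDA receptors and potassium channels, they lay between −0.69 and 0.67, for Homer2 between −0.74 and 0.60, and for Shank2 between −0.75 and 0.77. For Dlg1, a MAGUK that also occurs outside synapses, they lay between −0.93 and 0.80. They were widest for Shank1, between −1.26 and 1.21, and for Dlg4, between −1.44 and 1.49. With each series within a time point as a block, the 10 intervals of Dlg4 lay between −1.40 and 1.01.

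**Figure D1:**
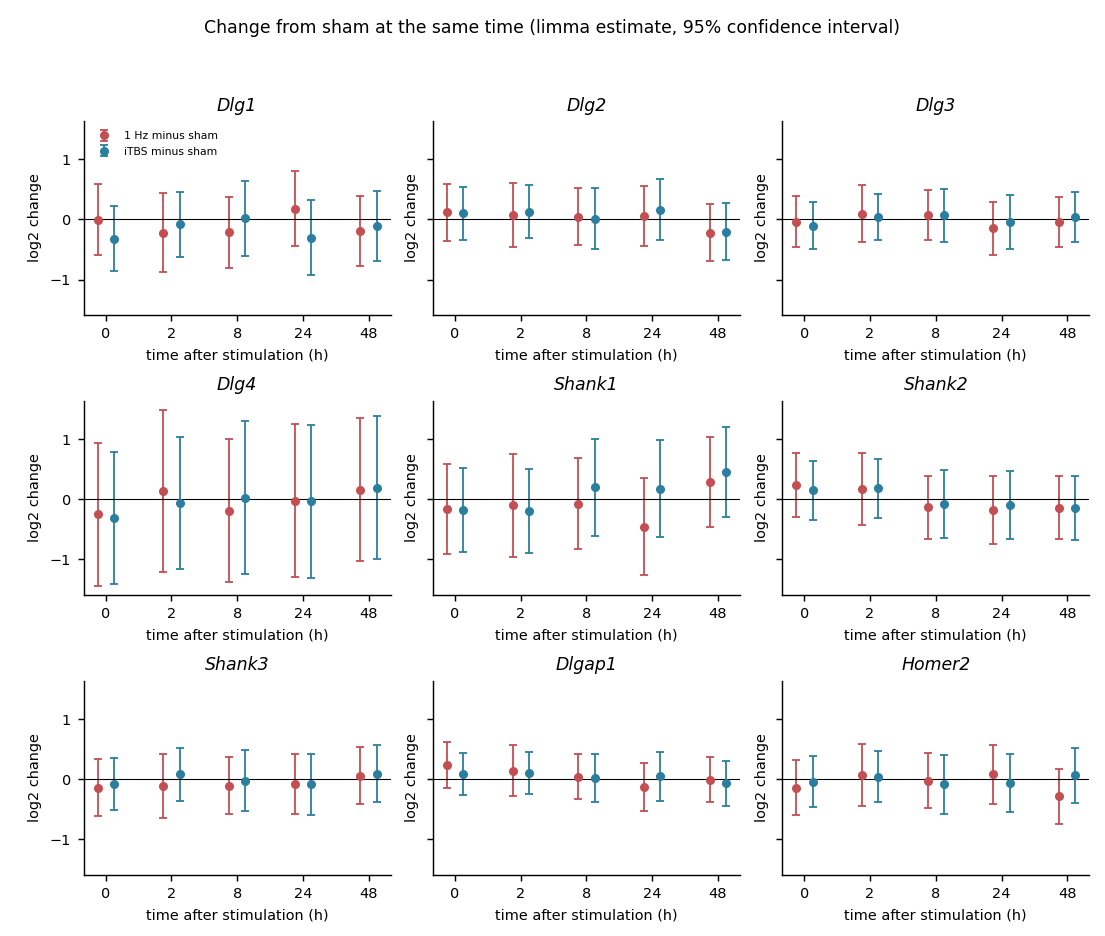
Change of each scaffold gene from sham at the same time, on the log2 scale, for 1 Hz and iTBS (points, limma estimates; bars, 95% confidence intervals) against the time after stimulation in hours. Every interval includes 0, and the intervals of Dlg4 are the widest, from −1.44 to 1.49.

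In no member did the arrays of a stimulated group lie wholly above or below the sham arrays, which over all probes happened in 3.34% of the 1 Hz tests and 1.93% of the iTBS tests. The arms were also compared within series, as differences between the stimulated and the sham array of the same series and time. The difference had the same sign in every series in 8 of 27 member tests for 1 Hz (0, 8 and 48 h, with 3 series each; 29.4% over all probes) and in 6 of 45 for iTBS (3 or 4 series each; 23% over all probes). The one such pattern that spanned 4 series was Dlg1 at 0 h after iTBS, which was lower than sham by between 0.14 and 0.54, with iTBS arrays at 1.11, 0.71, 1.13 and 0.20 and sham arrays at 1.498, 0.93, 1.27 and 0.74 in series B, C, A and D. When each series within a time point was made a block, the smallest unadjusted p of the 90 tests was 0.0547 in limma, and 0 passed.

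Averaged over the 5 times, 0 of 18 tests passed (0% of all probes). For 1 Hz the averages were −0.09 for Dlg1, 0.02 for Dlg2, −0.01 for Dlg3, −0.03 for Dlg4, −0.10 for Shank1, −0.01 for Shank2, −0.08 for Shank3, 0.06 for Dlgap1 and −0.06 for Homer2. For iTBS they ran from −0.16 (Dlg1) to 0.09 (Shank1), with Dlg2 and Dlgap1 at 0.04, Dlg3, Shank2 and Shank3 within 0.01 of 0, Dlg4 at −0.04 and Homer2 at −0.01. All 18 intervals lay between −0.59 and 0.52. Untreated arrays came from series A and C only and sham arrays at 0 h from series A to D, so arm and series are mixed here. The untreated cultures differed from sham at 0 h by 0.25 for Shank3 and 0.12 for Dlg1, by −0.21 for Dlg2 and Homer2, and by −0.14 to −0.04 for Dlg3, Dlg4, Shank1, Shank2 and Dlgap1. Within series, Shank3 stood at 7.04 and 6.97 against 7.16 for sham in A, and at 6.33 and 6.43 against 6.26 in C. In this comparison 0 of 9 genes passed (0.0028% of all probes), and with the series as a block the smallest unadjusted p was 0.093 in limma. Joint tests gave the same count: 0 of 9 genes passed for any stimulation (limma F, 0.0028% of all probes), for iTBS against 1 Hz (0.0028%) and for sham over time (0.0784%). In each of these joint tests, 0 of the 9 genes had an unadjusted p under 0.05. The difference between protocols was largest for Shank1 at 24 h, where iTBS exceeded 1 Hz by 0.64 ± 0.40 (SE, n = 3 and 3, interval −0.17 to 1.44), and the arrays lay at 4.37, 3.82 and 3.56 against 3.02, 3.69 and 3.12.

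The levels differed between the series. Series A, B and C share no slide, so for pairs among them series and slide can be set apart only by way of the D arrays on each slide. With the 16 groups in the model, 7 of the 9 genes differed between the 4 series (limma F, adjusted p between 9.9e-08 for Dlg2 and 0.017 for Dlgap1), and Shank1 (adjusted p = 0.051) and Dlg1 (0.053) did not pass. Over all probes 75.4% passed, so the share among the members was near the background. With the slide as a block, 8 of 9 passed (63.9% of all probes), and Shank3 did not (adjusted p = 0.060). The genes did not share 1 order of series. Dlg2, Dlg3, Dlg4 and Dlgap1 were highest in series D, Shank3 in series A, Shank2 and Homer2 in series C, and Dlg1 lowest in D.

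Among the MAGUKs, Dlg2 ran from 6.27 to 6.76 (median 6.58) in the 12 arrays of series B and from 6.85 to 7.52 (median 7.15) in the 15 arrays of series D. All D arrays were above all B arrays, and the difference adjusted for group was 0.60 ± 0.07 (SE, limma adjusted p = 1.2e-08). How many of all probes separated B from D in this way was not counted, and 52.9% of them passed for D against B. Series A (6.38 to 7.25, median 6.84) and C (6.56 to 6.96, median 6.79) lay between, and their difference of −0.05 did not pass. Dlg4 ran from −1.21 to 0.54 (median −0.48) in B and from 0.07 to 1.498 (median 0.92) in D, and 11 of the 15 D arrays were above the highest B array. Its difference of 1.43 ± 0.22 (SE, limma adjusted p = 6.6e-07) was the largest of any member between 2 series. Series A and C, with medians of 0.23 and 0.18, differed by −0.00 (interval −0.45 to 0.45), and each lay 0.69 above B and 0.73 below D, which passed in all 4 pairs. With the slide as a block, the difference between B and A turned to 0.43 (adjusted p = 0.76, with 0.44% of all probes passing). That between C and B was then 0.13 (adjusted p = 0.86, with 18.2% of all probes passing). The difference between B and A no longer passed without any 1 of 9 arrays (loss at adjusted p up to 0.077, without sham 2 h replicate 3).

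**Figure D2:**
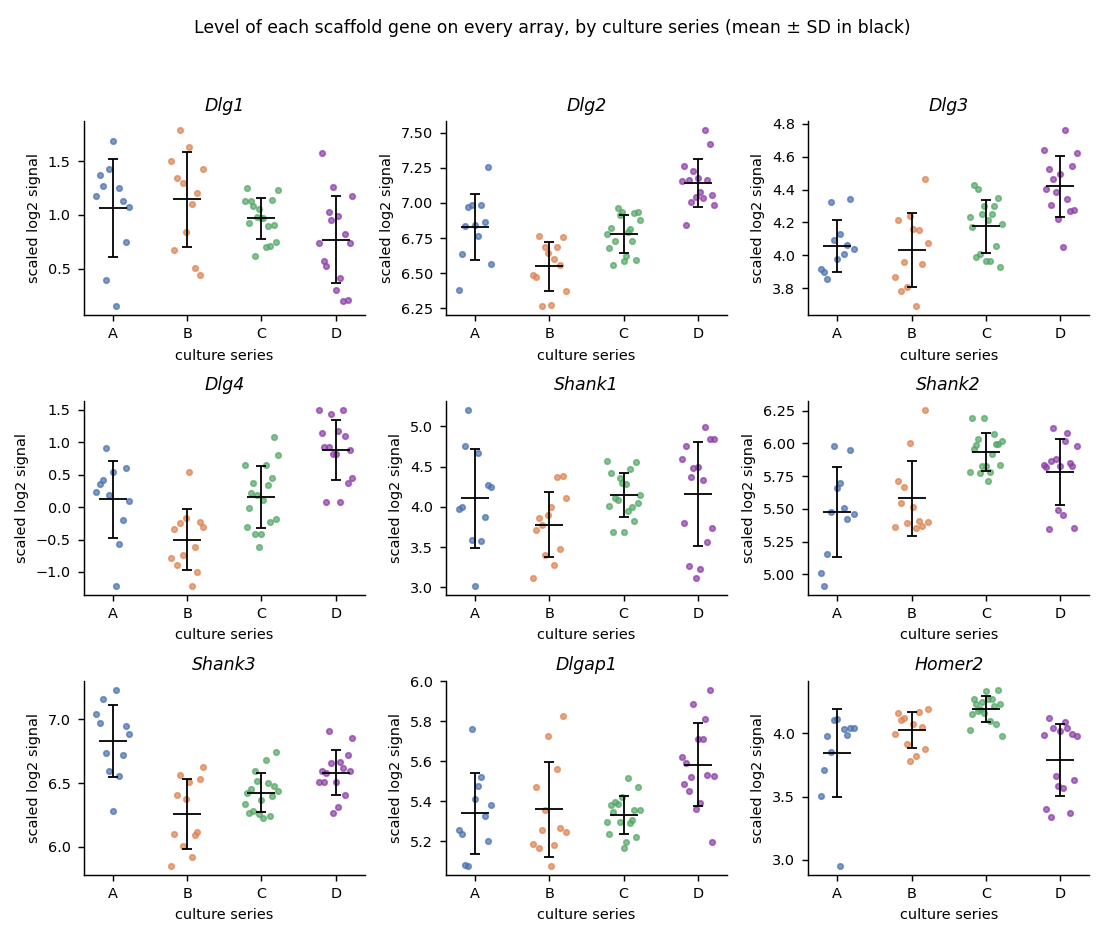
Level of each scaffold gene on every array (points; scaled log2 signal, array mean 0) by series, with the mean and SD of each series. The 15 arrays of series D lie above the 12 of series B for Dlg2, from 6.85 upwards against at most 6.76, while the ranges of B and D overlap for the other 8 genes. Over all probes 52.9% passed for D against B, and how many separated fully was not counted.

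Dlg3 ran from 3.69 to 4.46 (median 4.02) in B and from 4.05 to 4.76 (median 4.41) in D, a difference of 0.41 ± 0.08 (SE, limma adjusted p = 5.4e-05). It was also higher in D than in A (0.34) and C (0.23), and these 3 differences passed while A, B and C did not differ from each other beyond the threshold. Dlg1 went the other way, with a median of 0.74 in D (0.20 to 1.58) and of 1.25 in B (0.44 to 1.79), a difference of −0.39 ± 0.14 (SE, limma adjusted p = 0.017), and no other pair of series passed for it.

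Dlgap1, the link between the MAGUKs and the Shanks, was higher in D (5.19 to 5.96, median 5.53) than in each of the other series, by 0.22, 0.23 and 0.24 over A, B and C. The first of these no longer passed when any 1 of 18 arrays was left out, and the second when any 1 of 2 was. Among the Shanks, Shank3, whose loss in people is known from Phelan-McDermid syndrome, was highest in A (6.28 to 7.23, median 6.89). It was lowest in B (5.85 to 6.63, median 6.25). The difference of −0.61 ± 0.09 (SE) between B and A passed (limma adjusted p = 4.9e-06), but did not with the slide as a block (−0.53, adjusted p = 0.26). With that block 0.44% of all probes passed for B against A, against 30.4% without it, so the lost call says little about slides. Shank2 was highest in C (5.71 to 6.20, median 5.96), by 0.43 over A and 0.40 over B, and the difference of 0.21 between D and B did not pass (adjusted p = 0.11, interval −0.02 to 0.44). Shank1 was lower in B (3.11 to 4.38, median 3.81) than in C by 0.46 and than in D by 0.48, and both passed although the joint test over the series did not. They no longer passed without any 1 of 14 and any 1 of 5 arrays. Homer2, which ties Shank proteins to metabotropic receptors, was highest in C (3.98 to 4.34, median 4.22), by 0.33 over A and 0.43 over D, and it was lower in D than in B by 0.24.

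By pairs of series, 3 of 9 genes passed for B against A (30.4% of all probes), 3 for C against A (42.9%), 5 for D against A (41.7%), 4 for C against B (32.7%), 8 for D against B (52.9%) and 5 for D against C (52.5%). In D against B, 6 of the 8 were higher in D, and the median difference of the 9 genes was 0.36, against 0.02 over all probes. Because D shared each slide with A, B or C, its differences could be taken within slides. With the slide as a block, 5 of the 8 genes still passed in D against B (28.1% of all probes): Dlg2 at 0.67, Dlg3 at 0.43, Shank3 at 0.40, Dlgap1 at 0.47 and Dlg1 at −0.78. Dlg4 at 0.85 (limma adjusted p = 0.062), Shank1 at 0.61 (0.071) and Homer2 at −0.12 (0.53) did not. Dlg4 was then higher in D than in A by 1.28 and than in C by 0.71, and both passed. Dlgap1 and Dlg3 no longer passed between D and C, at −0.08 and 0.14. Between C and A, 4 of 9 genes then passed (24% of all probes): Shank1 at 1.12, Shank2 at 0.77, Dlgap1 at 0.65 and Homer2 at 0.65. Between C and B, 4 passed (18.2% of all probes): Shank1 at 1.08, Shank2 at 0.74, Dlgap1 at 0.55 and Dlg1 at −0.87. Without the slide block, Dlgap1 had differed by −0.02 between C and A and by −0.01 between C and B. Shank1 had differed by −0.005 between C and A.

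The second comparison asked whether the genes changed with time in culture after stimulation, over the arms. Without a block for the series, 0 of 9 genes passed (8.16% of all probes), with 2 at an unadjusted p under 0.05, Dlg1 and Shank1. With the series as a block, Shank1 (limma F, adjusted p = 0.039) and Shank3 (0.027) passed, and over all probes 27% did. Of all pairs of times, the largest change of Shank1 was from 2 to 24 h, lower by 0.72 ± 0.21 (SE, limma adjusted p = 0.023, 11.4% of all probes). That of Shank3 was from 8 to 24 h, lower by 0.32 ± 0.10 (SE, adjusted p = 0.028, 7.68%). Dlg1 from 8 to 48 h (−0.44, adjusted p = 0.040, 21.1%) and Homer2 from 2 to 48 h (−0.28, adjusted p = 0.042, 18.8%) passed as pairs too. Their joint tests over time did not pass (limma F, adjusted p = 0.089 and 0.11). Astrocyte markers moved with time too. With the same block 5 of 6 passed (27% of all probes), and the median change of the 6 from 0 to 48 h was 0.87 against −0.04 over all probes. At 48 h against 0 h, 4 passed as higher and 0 as lower. Aldh1l1, which passed over time, changed by −0.44 at 24 h and by −0.13 at 48 h. Of 10 neuronal markers 2 passed over time, and at 48 h 3 passed as lower and 0 as higher. Fewer neurons and less RNA per neuron cannot be told apart in such cultures, and the part of the astrocyte markers in these results was not tested. Without 1 of 17 single arrays Shank1 no longer passed, with adjusted p-values up to 0.095 (without iTBS 24 h replicate 3), and Shank3 did not without sham 8 h replicate 1 or 3 or iTBS 8 h replicate 1 (up to 0.062). With the series and the slide together as blocks, Dlgap1 alone of the 9 passed (0.0051; 20.7% of all probes), and the change of Shank1 from 0 to 24 h was 0.01 against −0.49 with the series alone.

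Within a series the course over time was not the same from series to series. A test of this, the series by time terms in a model with arm as a covariate, was added after the within-series values had been seen. It covered 51 arrays without the untreated cultures, and 7 of the 9 genes passed (39.4% of all probes), with limma adjusted p-values from 0.00019 (Dlg3) to 0.019 (Shank3), while Dlg2 (0.11) and Homer2 (0.20) did not.

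Shank1 went in opposite directions in series B and D. In series B its 3 arrays at 0 h stood at 3.11, 3.41 and 3.28 and its 2 arrays at 48 h at 3.90 and 4.38. In series D it stood at 4.59, 4.48 and 4.997 at 0 h and at 3.27, 3.22 and 3.74 at 48 h. The arrays of the 2 times did not overlap in either series, and the level was higher at 48 h in B and lower in D, with means of 3.27 and 4.14 in B and 4.69 and 3.41 in D. How many of all probes did the same was not counted, and 39.4% of them passed the test of the series by time terms. Series B had no sham array at 48 h, only 1 Hz and iTBS, whereas its arrays at 0 h included sham. Series C went from 4.24 to 4.03, and series A from 4.32 to 4.17, with a single array at 3.02 at 24 h.

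Other scaffold genes had means that differed between series B and D in the same way. Dlg3 went from 3.79 at 0 h to 4.35 at 48 h in B, from 4.45 to 4.21 in D and from 4.34 to 3.97 in C. Shank2 went from 5.37 to 6.13 in B and from 5.93 to 5.56 in D, and Dlgap1 from 5.24 to 5.78 in B and from 5.77 to 5.34 in D. Dlg4 went from −0.91 to −0.20 in B and from 1.48 to 0.71 in D. Shank3 went from 5.93 to 6.45 in B and from 6.59 to 6.49 in D. Dlg1 differed: it went from 1.301 to 0.64 in B and from 0.63 to 0.75 in D. Dlg2 and Homer2, which did not pass, went from 6.59 to 6.70 and from 3.91 to 3.83 in B, and from 7.299 to 7.10 and from 3.90 to 3.51 in D. Within each series the later times lay on later slides, so time and slide cannot be told apart there.

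**Figure D3:**
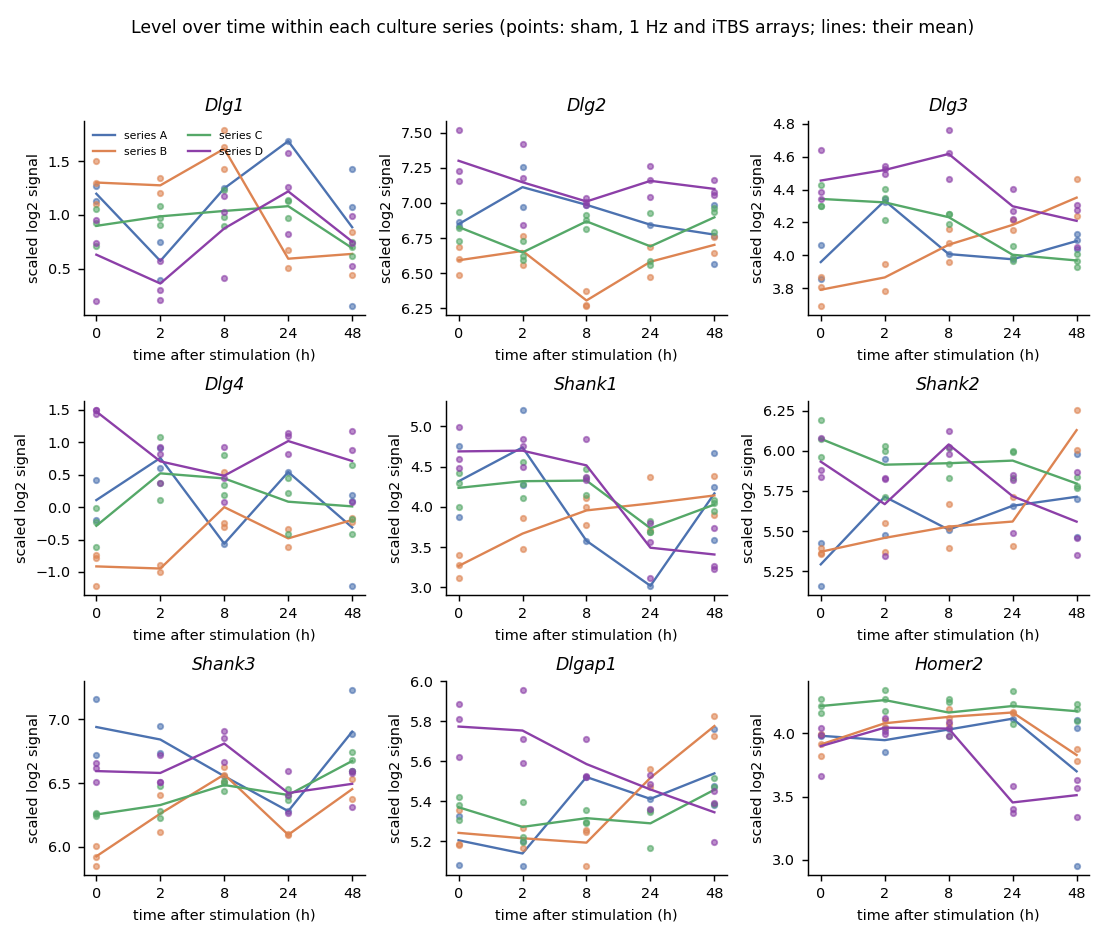
Level of each scaffold gene (scaled log2 signal, array mean 0) against hours after stimulation, within each series (points, arrays of the 3 arms; lines, series means). Shank1 goes from 3.27 to 4.14 in series B and from 4.69 to 3.41 in series D between 0 and 48 h.

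The 10 other probes of 6 of the genes gave a check on the probe chosen. Over all 19 probes, 0 of 323 tests between protocols or of a protocol against sham passed. In D against B, 16 of 19 probes were higher in D and 15 of them passed, and 3 passed as lower: those of Dlg1 and Homer2 and 1 probe of Dlgap1, which was above background on 6 of 55 arrays only and stood at −1.05. Of the 10 other probes, 9 passed as higher, with a median of 0.63 for the 10 against 0.36 for the 9 brightest probes.

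**Figure D4:**
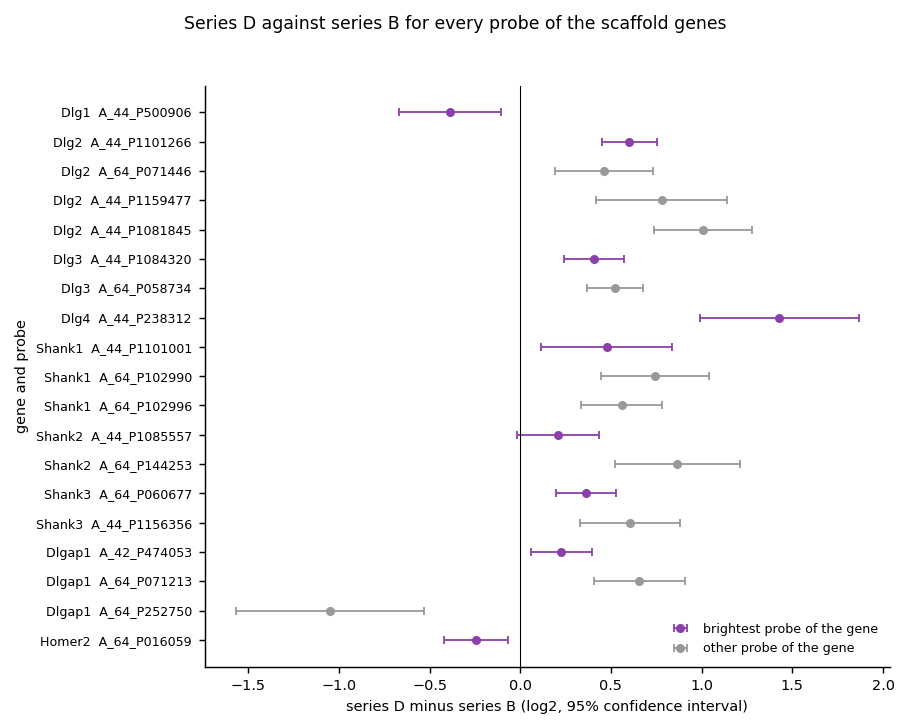
Difference between series D and B for all 19 probes of the 9 genes (points, limma estimates on the log2 scale; bars, 95% confidence intervals; purple, the brightest probe of a gene; grey, its other probes). Of the 19 probes, 16 lie above 0, and 1 probe of Dlgap1 lies at −1.05.

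Some probes of a gene disagreed elsewhere. For Shank2, C exceeded A by 0.43 at the brightest probe and was below it by 0.43 at the other, and both passed. For Shank3, D against A was −0.25 at the brightest probe, which passed, and 0.22 at the other. For Dlg2, C against A was −0.05 at the brightest probe and −0.21 to −0.77 at the others. With the series as a block, Shank3 at 48 h against 0 h was 0.20 (adjusted p = 0.094) at the brightest probe and −0.46 (adjusted p = 0.019) at the other. Shank1 at 48 h was −0.26 (adjusted p = 0.34) at the brightest probe and −0.52 (0.015) and −0.34 (0.031) at the others. Within series, the correlation across arrays between the brightest and another probe of a gene averaged 0.65 and 0.33 for Shank1 and 0.02 to 0.22 for the other genes. Such arrays share labelling and hybridisation, and the values describe these probes only.

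Of 30 other postsynaptic genes on a list, 27 were matched and tested. In 270 tests of stimulation 0 passed. Between series 23 genes differed (75.4% of all probes), and 15 differed between series over time (39.4%). With the series as a block 10 changed with time (27%), and without it 1, Magi2, did (limma F, adjusted p = 0.042, 8.16% of all probes). In D against B, where 52.9% of all probes passed, 15 were higher and 4 lower, with a median of 0.32 against 0.02 over all probes. By the F over all series, the largest were Cacng3, which encodes an AMPA receptor auxiliary subunit, Dlgap2, a relative of Dlgap1, and Homer3. Their differences between D and B were 2.91, 0.69 and −0.60, and some other genes of the list differed more between D and B than Dlgap2 and Homer3. The cell type markers moved between the same series. Of 10 neuronal markers 6 were higher in D than in B and 0 lower (median 0.48). Of 6 astrocyte markers 1 was higher and 3 were lower (median −0.17), of 5 microglial markers 2 were higher and 2 lower, of 4 endothelial and mural markers 3 were higher, and Mki67, a marker of dividing cells, was lower by 2.18. All 6 oligodendrocyte lineage markers were lower (median −2.92), with a summed signal, relative to the 75th percentile of the array, of 13.8 to 47.6 in D and 67.1 to 253 in A to C. The part of these cell types in the differences of the scaffold genes was not tested.

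The genes most like each scaffold gene were taken as the highest mean of 4 Pearson correlations across arrays, 1 within each series. They were Rasa3 (0.78) and Lims1 (0.78) for Dlg1, Necap1 (0.71) and Ppp3ca (0.70) for Dlg2, Limd2 (0.83) and Csdc2 (0.81) for Dlg3, and Cdk5r2 (0.73) and Lrrc8a (0.73) for Dlg4. For the Shanks they were Psme3 (0.89) and Mark2 (0.89) for Shank1, Fam131b (0.90) and Abhd8 (0.84) for Shank2, and Nxf1 (0.82) and Slc5a6 (0.76) for Shank3. For Dlgap1 they were C7h12orf75 (0.80) and Sec61b (0.78), and for Homer2 Cdk6 (0.64) and Hsph1 (0.63). Among the scaffold genes the closest pairs were Dlg3 with Shank1 (0.64) and with Shank2 (0.57), and the lowest value was that of Dlg1 with Shank1 (−0.42). These correlations run over 11 to 17 arrays of a series and include differences in time, arm and slide.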

How the data were processed

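RNA of each culture was labelled with 1 dye and hybridised to Agilent rat arrays. Per the file headers, the deposited intensity values came from Feature Extraction 12.0.3.1, with the background subtracted, and the grid named the rn4 build. The authors' value table holds deposited z-scores, which agreed within 0.00500 with scores made here from the processed signals. Spots that were not outliers were averaged per probe, and log2 signals were z-scored per array and rescaled by the arrays' median SD (4.0581), as the authors' z-score transformation does up to that factor. The 35699 probes that 3 or more arrays showed well above background were fitted in R 4.3.3 with limma 3.58.1, 16 groups, no block, and Benjamini-Hochberg adjustment over all of them at 0.05. Symbols came from RefSeq by accession, and the brightest probe stood for a gene. Precision is limited by the number of arrays.

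All 9 scaffold genes were to be named, singly or within counts and ranges, with up to 3 other postsynaptic genes per comparison by smallest p and the 2 most alike genes for each. Members and lists were chosen with earlier results of these data known. Replicate numbers did not pair samples (mean correlation of deviations 0.160, lowest −0.462), whereas arrays of the same series did deviate together (0.398, against −0.134 between series). A version of the study's criteria (ANOVA over all groups and z-test p of 0.05, false discovery rate 0.3, z-ratio of 1.5), whose exact computation in the authors' program is not given in the sources used here, called 0 to 7 of 45178 probes per comparison and 0 members, so it cannot stand for the study's own calls. Alternatives were 75th percentile and quantile scaling, normexp (offset 50, on the median signal and median background, since no mean signal was used here), the deposited scores, no filter, the mean of a gene's probes, slide, replicate and series blocks, all 56 arrays, and leaving out each array. Sequences are not given here.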

Additional observations from a re-analysis of the deposited data

Results flagged for a closer look

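In groups of 4 arrays, 4 of 72 tested sets had an array far from the others, where chance gives about 1 in 20. Shank1 in untreated 0 h replicate 3 stood at 4.57 against 3.98 to 4.01 (gap over range 0.945). Homer2 in sham 0 h replicate 3 stood at 4.27 against 3.98 to 4.00 (0.925), and in iTBS 2 h replicate 2 at 4.34 against 4.00 to 4.05 (0.844). Dlgap1 in iTBS 2 h replicate 4 stood at 5.96 against 5.20 to 5.26 (0.915).

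In 5 cases the difference from sham of the same series had 1 sign in every series at 1 time and the opposite sign in every series at another, over 2 or 3 series each. The mean differences between the times were 0.286 for Dlg2 (1 Hz, 0 against 48 h), 0.347 for Shank2 and 0.314 for Dlgap1 (1 Hz, 0 against 24 h), 0.313 for Homer2 (1 Hz, 24 against 0 h) and 0.232 for Shank3 (iTBS, 48 against 24 h). None passed in limma after adjustment, with unadjusted p-values of 0.311, 0.275, 0.191, 0.505 and 0.604 in that order.

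The change over time differed between series in 7 genes by the test of the series by time terms, which 39.4% of all probes passed. The test was added after the within-series values had been seen, and time and slide cannot be told apart within a series. Its limma adjusted p was 0.0159 for Dlg1, 0.000185 for Dlg3, 0.0159 for Dlg4, 0.000933 for Shank1, 0.00665 for Shank2, 0.0192 for Shank3 and 0.000800 for Dlgap1.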

How the results depend on the processing

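The count of 0 stimulation calls held under every alternative run except with all 56 arrays, where 1 Hz gave 8 calls, all at 2 h, the group of the array with the misplaced grid. The share of all probes called there is not given here, so these 8 calls cannot be read as particular to the scaffold genes. With all 56 arrays the culture series gave 1 gene in place of 7 (38.8% of all probes in place of 75.4%). The series by time test then gave 0 in place of 7 (2.83% in place of 39.4%). With the replicate number as a block (replicate block), the culture series gave 4 genes (62.9% of all probes), and D against B 1 of the 8, Homer2 (30.8% of all probes). Series B held replicates 1 and 2 only and series D replicates 3 and 4 only. That block therefore compares D with B only by way of A and C, and the lost calls cannot decide whether D and B differ. Time over arms gave 2 genes with the series block (27% of all probes) and 1 with the slide block (4.38% of all probes) in place of 0 (8.16%). Time with the series block gave 1 gene with 75th percentile scaling (26.7% of all probes) and 1 with series and slide blocks (20.7%) in place of 2. Leaving out each array in turn gave 0 to 0 calls for stimulation, its averages, the untreated cultures, the joint tests and time over arms, 6 to 9 genes for the culture series, 0 to 3 for time with the series block and 6 to 8 for series by time. With no array left out, 75.4% of all probes passed for the culture series, 27% for time with the series block and 39.4% for series by time. The shares with an array left out are not given here. The lost gene was Dlgap1 for the series without iTBS 2 h replicate 4 (adjusted p = 0.055), and Dlg1 for series by time without sham 24 h replicate 1 or iTBS 24 h replicate 1. With the mean of a gene's probes, 5 genes passed the series by time test (39.4% of all probes).

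Reversed differences were, with all 56 arrays, Dlg2 B minus A 0.20, Shank3 C minus A 0.20 and D minus A 0.41; with the slide block, Dlg4 B minus A 0.43 and Dlgap1 D minus C −0.0830; and with the mean of probes, Dlgap1 D minus A −0.10 and D minus B −0.0559, Dlg2 C minus B −0.0347 and Shank1 1 Hz at 48 h −0.0413. The cause was not tested. Of 252 values of series pairs under other settings, 177 kept their call, 67 lost it and 8 reversed, and of 1540 with 1 array left out, 1489 kept it and 51 lost it, mostly Dlgap1 D minus A (18 arrays), Shank1 C minus B (14) and Dlg4 B minus A (9). Scaling to the 75th percentile moved the median of all probes by 0.14 for B minus A.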
